A study of Rhodotorula toruloides with 2 samples.

Results

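The genes described here are those whose deposited KEGG or BLAST (nr) description names an enzyme or transporter of fatty acid β-oxidation, a lipase, a peroxisomal protein or a neighbouring step of fatty acid metabolism. They were chosen by search terms on the text (acyl-CoA, CoA hydratase, thiolase, lipase, peroxisom, peroxin, carnitine, long-chain, fatty acid and related words), after genes that belong to other gene groups and descriptions naming MFS, sterol or histone were set aside. This gave 36 of the 1402 genes in the authors' deposited table. They come from the oleaginous red yeast Rhodotorula toruloides (Rhodosporidium toruloides), wild-type strain AS 2.1389, grown in chemostats, which are continuous cultures of constant volume. One library is labelled Pi-limited and the other Pi-replete, where Pi is inorganic phosphate, with 5892590 and 5641377 counts in all. With 1 library per condition the spread between cultures was not measured, no p-value was computed, and every interval below is an exact 95% interval for counting error only.

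Yeasts break down stored triacylglycerol with lipases that release fatty acids. Long-chain fatty acids are then activated to acyl-CoA, imported into peroxisomes by ATP-binding cassette transporters or carried across mitochondrial membranes as carnitine esters, and shortened stepwise by β-oxidation, in which dehydrogenation, hydration, a further dehydrogenation and cleavage by thiolase release acetyl-CoA. Elongases of the endoplasmic reticulum work in the other direction and lengthen acyl chains, some of which ceramide synthase joins to sphingoid bases. In oleaginous yeasts the balance of these routes bears on how much lipid a cell stores.

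Transcripts of phosphate uptake and release went against the labels, since in fungi they are known to be induced when phosphate is short. Of 11 listed genes matched by phosphate response terms, 10 were lower in the Pi-limited-labelled library, and the sodium-dependent phosphate transporter RHTO_01284 had 22 counts there against 5797 in the Pi-replete-labelled library. Alkaline phosphatase RHTO_03053 had 9 counts against 692 and RHTO_05069, annotated both as a phosphate transporter and as ribonuclease T2, had 4 against 251. The deposited columns of the Pi-limited-labelled library are headed control_F3A, and those of the Pi-replete-labelled library are headed P0A. No library was reassigned, and every direction below is that of the label a library carries. Whether the 2 labels were exchanged was not tested; an exchange would turn every direction and fold round, so that 22 of the 36 genes would be higher with Pi limitation and the summed folds given below would read 2.20 in place of 0.454 for breakdown, 2.36 in place of 0.423 for the lipase terms and 0.362 in place of 2.76 for the remaining 6 genes.

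By library totals, genes of fatty acid breakdown and genes with a lipase term were mostly lower in the Pi-limited-labelled library. Every listed member of chain elongation, ceramide synthesis and acyl-CoA thioester hydrolysis was higher there. So was the single member with a peroxin term, which is also described as a ubiquitin-conjugating enzyme. Of the 36 genes, 22 were lower and 14 higher (61.1% lower), and their median log2 ratio (labelled Pi-limited over labelled Pi-replete) was -1.10. Among all 1402 listed genes 41.7% were lower and 58.3% higher, with a median of 1.10. Only listed genes could be members, and listing took 17.6% of the 7970 genes the authors tested, so each of the 36 had passed the authors' thresholds of a 2-fold difference and a false discovery rate (FDR) of 0.001 by the way it was chosen. The 13 lower and 5 higher breakdown genes, 9 lower and 3 higher genes with a lipase term, and 6 higher genes of the remaining roles make up the total. Of the 12 genes with a lipase term, 2 are described as phospholipase-activating proteins, and the 10 others divided into 8 lower and 2 higher. The interval of the fold lay wholly beyond 2-fold for 15 of the lower and 10 of the higher genes. No such share was computed over all 1402 listed genes, so these counts have no background to be read against. In a bulk preparation, fewer cells carrying a transcript and less of it per cell cannot be told apart.

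The split of directions depended on the scaling. With equal totals over the listed genes, which adds 0.31 to every log2 ratio, 14 members stayed at least 2-fold higher and 10 at least 2-fold lower (41.7% lower, against 34.8% of all listed genes). With ratios centred on the median of the listed genes, which takes 1.10 off each log2 ratio (a shift of -1.10), 4 were at least 2-fold higher and 22 lower (84.6%, against 76.3% of all listed genes). By role, equal totals left breakdown at 5 higher and 5 lower and the genes with a lipase term at 3 higher and 5 lower, with 6 of 6 remaining genes still higher. Median centring left breakdown at 2 higher and 13 lower, the genes with a lipase term at 2 higher and 9 lower, and none of the 6 remaining genes at 2-fold (0 higher, 0 lower). Genes under a 2-fold difference are not analysed here, so such a shift can only take genes out of a single direction.

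Summed over the 36 genes, 10850 counts fell in the Pi-limited-labelled library, or 0.184% of its total (0.181 to 0.188), and 17265 in the Pi-replete-labelled library, or 0.306% (0.302 to 0.311). The 18 breakdown genes held 4918 counts against 10365, a fold of 0.454 (0.439 to 0.470), and the 12 genes with a lipase term 2528 against 5720, a fold of 0.423 (0.404 to 0.443), or 1663 against 4456 and 0.357 (0.338 to 0.378) without the activating proteins. Over all 1402 listed genes the sums were 782584 against 928846, a fold of 0.807 (0.804 to 0.809). For the 6 genes of elongation, ceramide synthesis, thioester hydrolysis and the peroxin term the sums were 3404 against 1180, a fold of 2.76 (2.58 to 2.95). Of the 3404 counts, 1907 came from the elongase RHTO_02657. Each of these 6 genes had passed the 2-fold threshold in the same direction, so a summed fold above 2 was fixed in advance. The threshold also kept genes with smaller differences out of the breakdown and lipase sums.

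**Figure D1:**
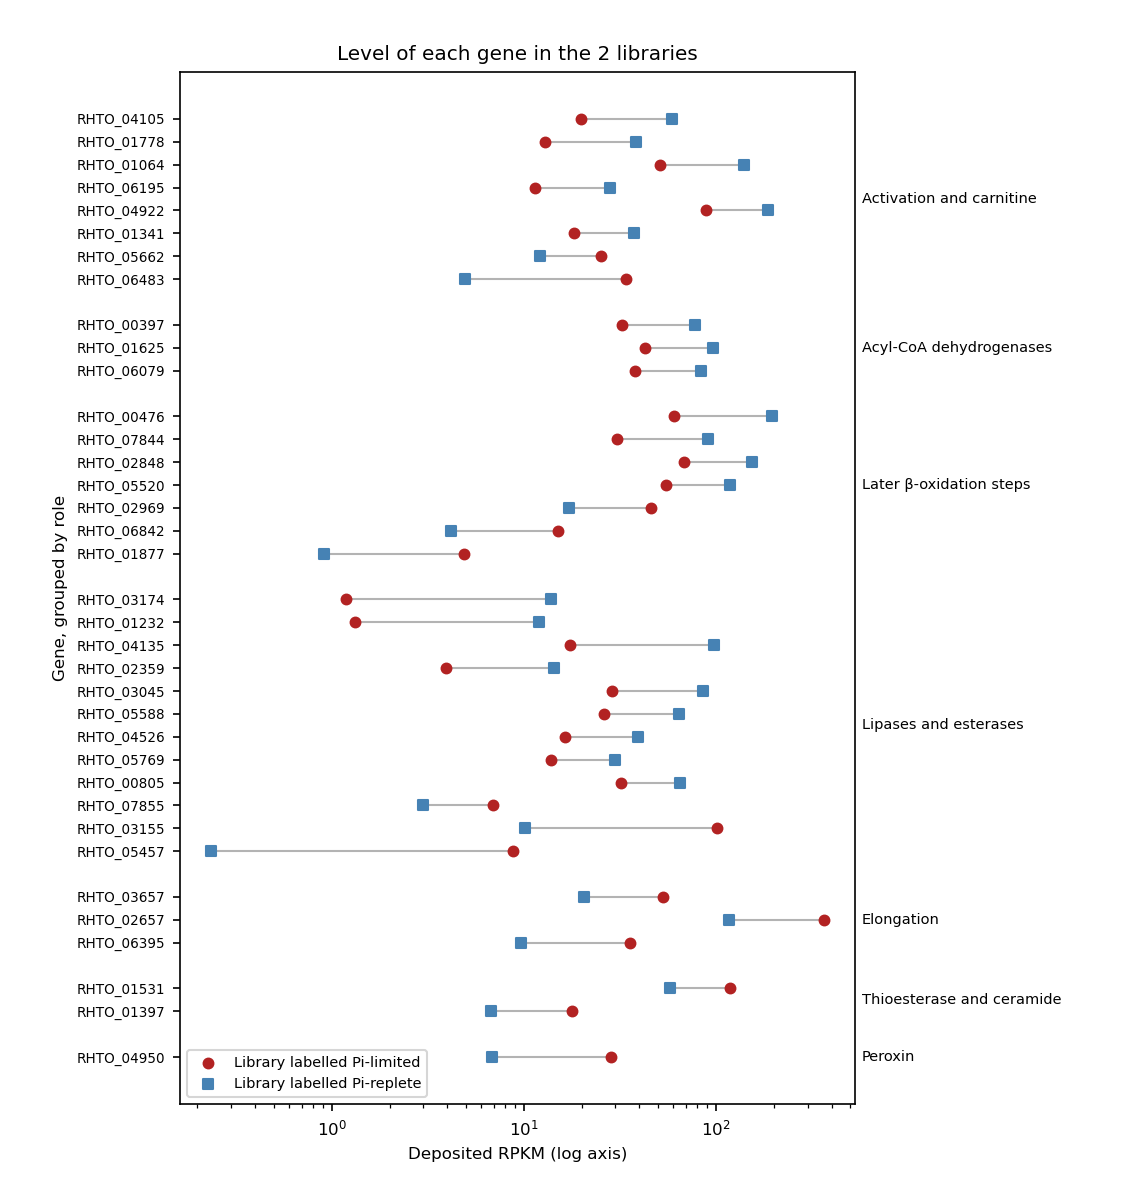
Deposited RPKM of each of the 36 genes (horizontal log axis), grouped by role, in the Pi-limited-labelled library (circles) and the Pi-replete-labelled library (squares). The elongase RHTO_02657 has the highest level in the Pi-limited-labelled library (367 RPKM) and the thiolase RHTO_00476 the highest in the Pi-replete-labelled library (196 RPKM).

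Fatty acid activation and entry into the organelles was represented by 8 genes, of which 6 were lower and 2 higher in the Pi-limited-labelled library. Both genes described as the peroxisomal long-chain fatty acid importer of ATP-binding cassette subfamily D were lower. RHTO_04105 had 279 counts in the Pi-limited-labelled library against 801 in the Pi-replete-labelled library, a fold of 0.333 (0.290 to 0.383), and RHTO_06195 had 154 against 361, a fold of 0.408 (0.336 to 0.495). A gene whose KEGG terms include long-chain acyl-CoA synthetase, which activates fatty acids for every later step, was RHTO_01778, with 139 counts against 394 (0.338-fold, 0.276 to 0.411). Its other terms are coumarate-CoA ligase and a ribosome assembly protein, and its BLAST hit is an AMP-dependent CoA ligase, so the substrate is not settled by the text.

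Carnitine O-acetyltransferase moves acetyl groups from CoA to carnitine so that acetyl units can cross membranes. RHTO_01064 had 598 counts against 1558 (0.367-fold, 0.334 to 0.404), although its BLAST hit is a nucleolar GTP-binding protein, and RHTO_01341 had 223 against 442 (0.483-fold, 0.409 to 0.569). A further gene of that description, RHTO_01903, set aside by its identifier, also had the lower count in the Pi-limited-labelled library, 147 against 558. Carnitine synthesis itself appeared beside the lipase-type gene RHTO_04135: its neighbour RHTO_04134, named after its values were seen and described as trimethyllysine or γ-butyrobetaine dioxygenase, had 392 counts against 908 (0.413-fold, 0.366 to 0.466).

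The genes described as mitochondrial carnitine/acylcarnitine carriers, which exchange acylcarnitine for free carnitine, did not share a direction. RHTO_04922 was the most abundant of the 3, with 89.1 RPKM in the Pi-limited-labelled library and 187 RPKM in the Pi-replete-labelled library (474 against 953 counts, 0.476-fold, 0.426 to 0.532). RHTO_06483 had 223 counts against 31, a fold of 6.89 (4.72 to 10.4), and RHTO_05662 had 158 against 73, a fold of 2.07 (1.56 to 2.77). All 3 share a single KEGG term and have uncharacterised proteins as their best BLAST hits, and which of them carries carnitine esters in this yeast is not given. The log2 ratio of RHTO_05662 was 1.05, and -0.048 after median centring.

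Acyl-CoA dehydrogenases introduce the first double bond of each mitochondrial cycle. All 3 listed genes of this kind were lower in the Pi-limited-labelled library, within a narrow range of folds. RHTO_00397 had 305 counts against 704 (0.415-fold, 0.361 to 0.475), RHTO_01625 had 329 against 714 (0.441-fold, 0.386 to 0.503), and RHTO_06079 had 292 against 616 (0.454-fold, 0.393 to 0.522). RHTO_06079 is described by KEGG as glutaryl-CoA dehydrogenase, an enzyme of lysine and tryptophan breakdown, and was matched by its BLAST hit. Their levels were close too, at 32.4, 42.8 and 38.1 RPKM in the Pi-limited-labelled library and 78.0, 97.0 and 84.1 RPKM in the Pi-replete-labelled library. Acyl-CoA oxidase, which takes this step in peroxisomes, matched 0 listed descriptions and is not analysed here.

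Later steps of the cycle gave 4 lower and 3 higher genes. Thiolase ends each cycle by splitting off acetyl-CoA. RHTO_00476, described as acetyl-CoA acyltransferase 2 or an acetyl-CoA C-acetyltransferase, had 428 counts in the Pi-limited-labelled library against 1318 in the Pi-replete-labelled library (0.311-fold, 0.278 to 0.347). The other thiolase, RHTO_02848, had 504 against 1093 (0.441-fold, 0.396 to 0.491). Hydroxyacyl-CoA dehydrogenase takes the second oxidation. RHTO_05520, described as that enzyme or as a hydroxybutyryl-CoA dehydrogenase, had 316 against 650 (0.465-fold, 0.406 to 0.533). The member named enoyl-CoA hydratase by KEGG and BLAST alike, RHTO_06842, ran the other way, with 71 counts against 19 (3.58-fold, 2.13 to 6.29). It stood far below the thiolases in level, with 15.0 RPKM against 4.19 RPKM.

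Dienoyl-CoA reductase is an auxiliary enzyme that lets unsaturated fatty acids pass through the cycle. The term occurs in 3 members, each a short-chain dehydrogenase or reductase that carries further KEGG terms. RHTO_07844 had 196 counts against 561 (0.334-fold, 0.283 to 0.394), RHTO_02969 had 201 against 72 (2.67-fold, 2.03 to 3.55), and RHTO_01877 had 28 against 5 (5.36-fold, 2.04 to 17.8). The best covered of the 3 was thus the only lower one. A gene outside the search terms, RHTO_06581, chosen after its values were seen, is described as the multifunctional β-oxidation protein, which in fungi joins the hydratase and the second dehydrogenase in peroxisomes. It had 793 counts against 1580 (0.481-fold, 0.441 to 0.524), and the 2 short reductases that carry the same term among others, RHTO_00542 (72 against 27) and RHTO_01881 (75 against 23), were higher in the Pi-limited-labelled library.

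**Figure D2:**
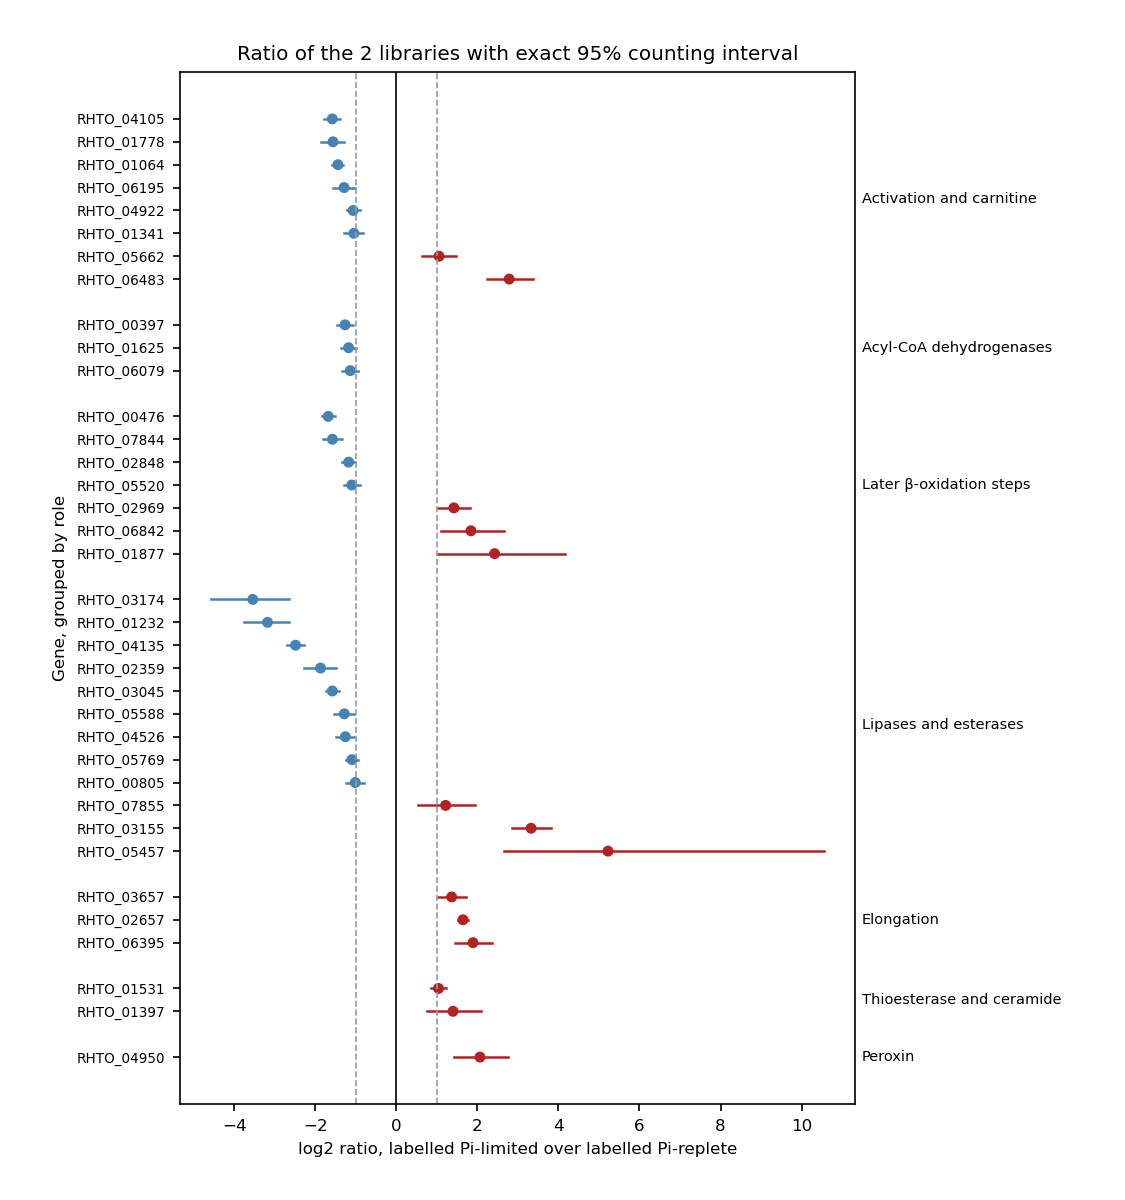
Log2 ratio of each gene (horizontal axis, labelled Pi-limited over labelled Pi-replete) with its exact 95% counting interval as a line, grouped by role. Dashed lines mark a 2-fold difference. The 22 lower genes lie left of 0 and the 14 higher genes right of it, and RHTO_05457, with 39 counts against 1, has the widest interval.

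Genes with a lipase or esterase term were the largest role, with 12 genes, 9 lower and 3 higher in the Pi-limited-labelled library, or 8 and 2 without the activating proteins. The 3 members that were at least 4-fold lower are all described as esterase or lipase, a broad term for enzymes that hydrolyse carboxylic esters. RHTO_03174 had 11 counts against 123 (0.0856-fold, 0.0417 to 0.159), RHTO_01232 had 32 against 278 (0.110-fold, 0.0739 to 0.159), and RHTO_04135 had 218 against 1173 (0.178-fold, 0.153 to 0.206). RHTO_04135 was the most abundant of these, with 17.4 RPKM in the Pi-limited-labelled library and 98.0 RPKM in the Pi-replete-labelled library. Its best BLAST hit is a proteophosphoglycan, a name that 111 listed genes share, and whether it shares reads with them is not known.

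RHTO_02359, whose BLAST hit is a hormone-sensitive lipase (in animals the enzyme that releases fatty acids from stored diacylglycerol), had 71 counts against 249 (0.273-fold, 0.207 to 0.357). KEGG also names it battenin, in animals a lysosomal membrane protein. RHTO_00805, an α/β-hydrolase, had 272 counts against 527 (0.494-fold, 0.425 to 0.573), the smallest difference of all 36 genes. In the other direction, the α/β-hydrolase RHTO_05457, also described as a carboxymethylenebutenolidase, had 39 counts against 1, a fold of 37.3 whose interval ran from 6.32 to 1512. RHTO_07855 is the only listed member with the KEGG term triacylglycerol lipase, beside battenin and a monocarboxylate permease as BLAST hit. It had 63 counts against 26 (2.32-fold, 1.45 to 3.82) and the largest FDR of the members in the authors' deposited table, 4.2e-04.

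Phospholipases cut membrane phospholipids rather than stored fat. Phospholipase D, which releases phosphatidic acid, was the description of RHTO_04526, with 244 counts against 560 (0.417-fold, 0.357 to 0.486), and of RHTO_05769, with 511 against 1047 (0.467-fold, 0.420 to 0.520). RHTO_05588, described as a phospholipase D that acts on N-acyl-phosphatidylethanolamine, had 202 against 472 (0.410-fold, 0.346 to 0.484). KEGG also names it RNA exonuclease 1, and its BLAST hit is a hypothetical protein. All 3 genes with a phospholipase D term were lower in the Pi-limited-labelled library by a similar factor, a range that the 2-fold listing threshold narrows. The genes described as phospholipase A-2-activating protein, whose yeast relative works in ubiquitin-dependent protein turnover and is no lipase, were opposed: RHTO_03045 had 426 against 1222 (0.334-fold, 0.298 to 0.373) and RHTO_03155 had 439 against 42 (10.01-fold, 7.28 to 14.1). RHTO_03155 has 732 bases against 2514 for RHTO_03045 and is named by its BLAST hit alone. The lysophospholipase RHTO_04785, set aside by its identifier and named an AMP-binding protein by BLAST, had 1531 against 256. Of the genes with a lipase term, RHTO_04526, RHTO_05769, RHTO_00805 and RHTO_07855 fell outside the rule for named genes and are given to account for every member.

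Fatty acid elongation was higher in the Pi-limited-labelled library in all 3 listed genes. Elongases carry out the condensing step that adds carbon to an acyl-CoA. RHTO_02657 had 1907 counts in the Pi-limited-labelled library against 585 in the Pi-replete-labelled library, a fold of 3.12 (2.84 to 3.43), and at 367 RPKM against 118 RPKM it was the most abundant member in the Pi-limited-labelled library. The other elongase, RHTO_06395, had 209 counts against 54 (3.71-fold, 2.74 to 5.10). Dehydration, a later step of elongation, was represented by the hydroxyacyl-CoA dehydratase RHTO_03657, with 274 against 102 (2.57-fold, 2.04 to 3.26), whose BLAST hit is a protein tyrosine phosphatase, a name also used for relatives of this dehydratase.

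The acyl-CoA-dependent ceramide synthase RHTO_01531, which uses long acyl-CoA to build sphingolipids, had 828 counts against 386 (2.05-fold, 1.82 to 2.32), with 118 RPKM against 57.6 RPKM. Its log2 ratio of 1.04 became -0.060 after median centring, and those of the 3 elongation genes, 1.64, 1.89 and 1.36, became 0.54, 0.79 and 0.26, all under a 2-fold difference. The acyl-CoA thioester hydrolase RHTO_01397, which frees fatty acids from CoA, had 77 counts against 28 (2.63-fold, 1.69 to 4.22). RHTO_04950 is the only listed member with a peroxin term. It had 109 counts against 25 (4.17-fold, 2.68 to 6.73), and its other KEGG terms are ubiquitin-conjugating enzymes, the family to which that peroxin belongs, and the text does not say which it is. The terms for fatty acid desaturases matched 0 listed descriptions.

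Among the members a peroxin term thus occurred in RHTO_04950 alone, and whether that gene acts in peroxisome biogenesis is not settled by the text. A peroxin-3 term also occurs in 7 listed genes whose KEGG terms name an MFS transporter as well, allantoate permease in 6 and a pantothenate transporter in RHTO_06262, and these were set aside. All 7 were lower in the Pi-limited-labelled library, with RHTO_07802 at 1 count against 112. With the 9 matching genes that were set aside put back, 30 genes were lower and 15 higher.

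At least 4-fold differences were seen in 8 of the 36 genes. Higher by that much were 5 of the 36 (13.9%, near the 14.1% of all listed genes), and lower were 3 (8.33%, against 19.8%). The 5 higher ones were RHTO_05457, RHTO_03155, RHTO_06483, RHTO_01877 and RHTO_04950. RHTO_05457 and RHTO_01877 were the only 2 members with under 50 counts in whichever library had more. RHTO_03155 is described as a phospholipase-activating protein, and RHTO_04950 also as a ubiquitin-conjugating enzyme. No breakdown gene was 4-fold lower: the 13 lower breakdown genes had log2 ratios between -1.69 (RHTO_00476) and -1.05 (RHTO_01341). Of all 22 lower genes, 12 had a log2 ratio between -1.31 and -1, and these drop below 2-fold with equal totals over the listed genes.

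Direction followed gene length and abundance among the members. The 22 lower genes had a median length of 1710 bases and a median of 633 counts in whichever library had more, and the 14 higher genes 880.5 bases and 179.5 counts. Over all listed genes the same medians were 1479 bases and 393 counts for the lower genes and 1170 bases and 190 counts for the higher genes. Among members of at least 1287 bases, the median of the listed genes, 17 of 18 were lower (94.4%), against 50.1% of the 703 listed genes of that length. Among shorter members 5 of 18 were lower (27.8%), against 33.3% of 699. By abundance, 21 of 25 members with at least 248 counts in whichever library had more were lower (84.0%, against 51.0% of the listed genes), and 1 of 11 with fewer (9.09%, against 32.4%). The part of length and depth in the directions was not tested.

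**Figure D3:**
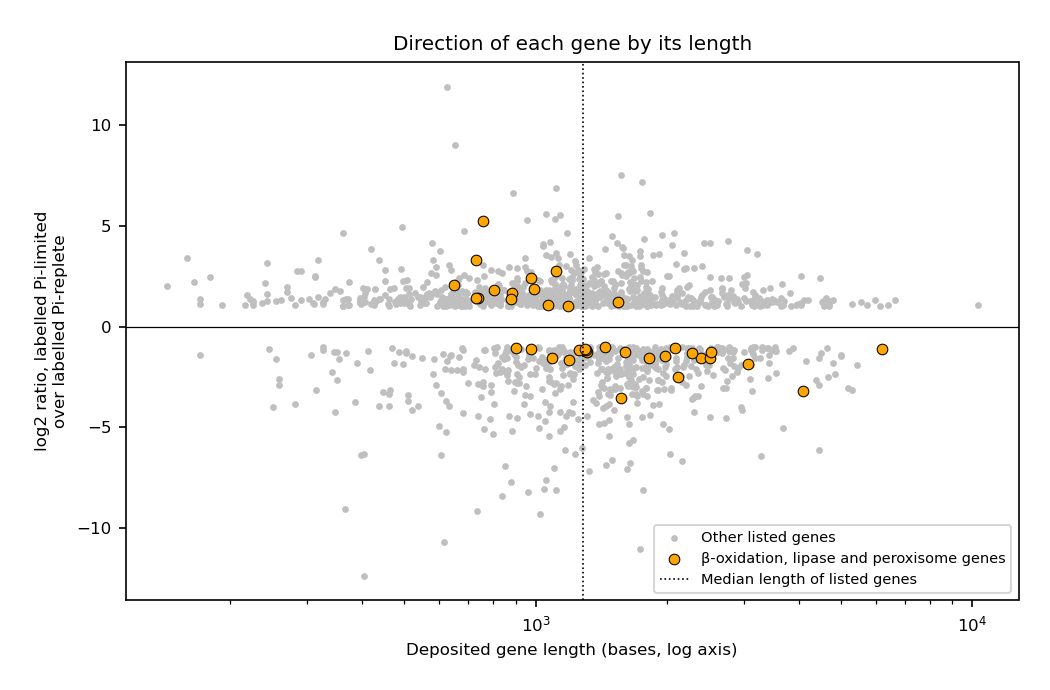
Log2 ratio (vertical axis, labelled Pi-limited over labelled Pi-replete) against deposited gene length in bases (horizontal log axis) for the 36 genes (large points) and the other listed genes (small points), with the median length of 1287 bases dotted. Right of that line 17 of 18 members lie below 0, and left of it 5 of 18 do. The empty band around 0 is the authors' 2-fold threshold.

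The text behind the names was thin. KEGG terms alone matched 30 members, BLAST hits alone 3, and both matched 3: the hormone-sensitive lipase type RHTO_02359, the acyl-CoA dehydrogenase RHTO_01625 and the enoyl-CoA hydratase RHTO_06842. In 20 members the best BLAST hit is a hypothetical protein, and 11 carry any gene ontology term. A further KEGG name that the search terms do not match was present in 14 members, 9 lower and 5 higher. The 22 members without one divided into 13 lower and 9 higher.

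Gene order in the RefSeq table of strain NP11 placed a listed gene directly beside a member in 17 pairs, and the 2 genes of a pair had the same direction in 12 (70.6%), near the 65.5% of all 293 neighbouring listed pairs. In 0 of the 17 pairs did the annotated spans overlap. Several neighbours differed far more than the member itself. Phospholipase D RHTO_05769 (log2 ratio -1.10) lies beside isocitrate lyase RHTO_05768 (-7.07), and RHTO_05588 (-1.29) beside the cystathionine lyase RHTO_05589 (-4.45). Importer RHTO_04105 (-1.58) lies beside the acetyltransferase RHTO_04104 (-3.70), whereas the neighbour of RHTO_01232 (-3.18), RHTO_01233, had 49 counts against 1 (5.55). These neighbours were named after their values were seen.

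Listed genes matched by terms for acetyl units, the glyoxylate bypass, glycerol and the lipid store were found in both directions. The acetyl-unit and glyoxylate terms matched 8 listed genes that are not members, 5 lower and 3 higher in the Pi-limited-labelled library, although 1 of the lower genes is an isopropylmalate synthase matched by wording. Isocitrate lyase RHTO_05768, which opens the glyoxylate bypass, had 47 counts against 6064, malate synthase RHTO_01459 had 247 against 1860, and a further isocitrate lyase, RHTO_03507, had 453 against 2019. The 3 higher genes, named after their values were seen, were ATP-citrate lyase RHTO_03915 (13087 against 3342), which makes cytosolic acetyl-CoA, a citrate synthase, RHTO_07345 (500 against 210), and RHTO_05767 (102 against 32), with isocitrate lyase as its BLAST hit. Terms for glycerol and the lipid store matched 4 genes, 3 lower and 1 higher. Glycerol kinase RHTO_07649, which recovers the glycerol that lipases release, had 564 counts against 1214 (0.445-fold, 0.402 to 0.492), and glycerol-3-phosphate dehydrogenase RHTO_07665 had 1222 against 2785. The higher one, RHTO_01519 (312 against 93), was matched by wording: its KEGG terms are a lysocardiolipin and lysophospholipid acyltransferase and the RNA polymerase-associated protein CTR9, and its BLAST hit is a hypothetical protein.

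Peroxide is a by-product of peroxisomal acyl-CoA oxidation. The 2 listed genes matched by the terms searched for its removal were higher in the Pi-limited-labelled library. Catalase RHTO_01370 had 341 counts against 142 (2.30-fold, 1.88 to 2.82) and glutathione peroxidase RHTO_00225 had 189 against 38 (4.76-fold, 3.35 to 6.94). Terms for the breakdown of branched-chain amino acids and propionyl-CoA, some steps of which resemble β-oxidation, matched 6 genes, all higher there. Among all listed genes 58.3% were higher. The 3 with the largest ratios were RHTO_06709 (101 against 18), RHTO_02519 (139 against 29) and RHTO_00385 (403 against 92), where RHTO_06709 has a polyprotein as BLAST hit and RHTO_02519 is also described as a quinone reductase. RHTO_00385 is described as methylmalonate-semialdehyde dehydrogenase of valine breakdown.

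**Figure D4:**
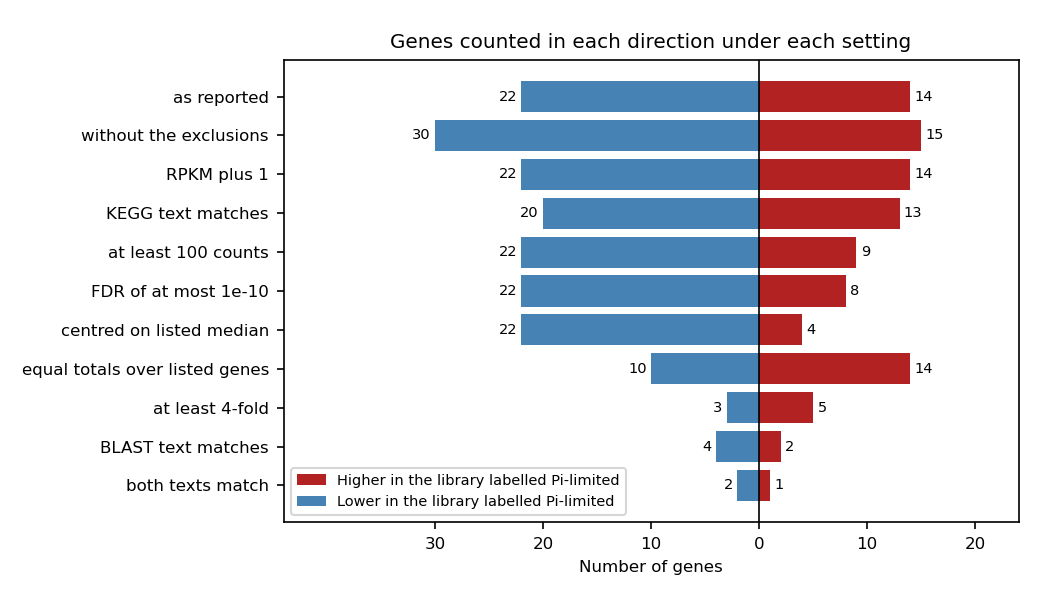
Number of genes higher (right bars) and lower (left bars) in the Pi-limited-labelled library under the settings shown. The 2 scaling settings count only genes still at least 2-fold apart, and the setting with 1 added to RPKM counts genes by sign alone. The lower genes outnumber the higher ones as reported (14 higher, 22 lower). With equal totals over the listed genes no gene changed sign, and 14 higher and 10 lower ones stayed at least 2-fold apart. Among genes that differ at least 4-fold there were 5 higher and 3 lower.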

How the data were processed

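Total RNA of 1 chemostat culture sample per condition was sequenced; per the labels' protocols 40 ml of culture was sampled onto ice and libraries followed standard Illumina protocols. The submitters' processing notes name Cufflinks and DESeq without a role. With aligner, genome build and strand setting each not given in the sources used here, reads of overlapping, antisense or near-identical genes cannot be told apart. The authors deposited 1 table of listed genes. Per the file headers its columns are the raw count and the RPKM (counts scaled by gene length and library total) of each gene in each library, their log2 ratio, and a p-value and FDR. The deposited log2 ratio has the Pi-replete-labelled library on top and was turned round here. Library totals were recovered from the deposited counts, lengths and RPKM values, the same for 100% of genes with a count. The number of tested genes was recovered from FDR divided by p. Folds carry exact 95% intervals (conditional binomial of the 2 counts), computed with Python 3.11.15 and scipy 1.17.1. The code was tried only on simulated counts with counting error alone, which cannot test the intervals against spread between cultures. PCR duplicates are not told apart, so intervals cover counting error only. Depth ranged over 28 to 1907 counts in whichever library had more. Of the deposited lengths 99.4% were multiples of 3, so they are coding lengths. All 1402 identifiers matched the RefSeq table of assembly RHOziaDV1.0, which gives no gene names and was used only for neighbours.

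The members, role groups and other gene lists were chosen with earlier results of these data known. Genes named are all members of a role with up to 8 genes, the 8 with the largest absolute log2 ratio of the larger role, and the 3 with the largest ratio and at least 50 counts of each other list. Alternatives covered scaling, count, FDR and fold minimums, a pseudocount of 1 RPKM, and which description matched.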

Additional observations from a re-analysis of the deposited data

How the results depend on the processing

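No paired analysis was possible because there is 1 library per condition. The reported split was 14 higher and 22 lower in the Pi-limited-labelled library, with a median log2 ratio of -1.10 and 61.1% lower. Equal totals over the listed genes left 10 lower (41.7%), by the construction of a table cut at 2-fold. Median centring left 4 higher, 84.6% lower and a median of -2.20, and turned RHTO_05662 (-0.048) and RHTO_01531 (-0.060) below 0; no other member changed sign under either scaling or with 1 added to RPKM. At least 100 counts left 9 higher and an FDR of at most 1e-10 left 8, each with 22 lower. Members matched by BLAST text gave 2 higher and 4 lower, and by both texts 1 and 2, since fewer genes enter. Among genes at least 4-fold apart there were 5 higher and 3 lower (37.5% lower, median 2.24). Settings added after seeing the data were the return of the genes set aside, which kept the balance, the removal of the phospholipase-activating proteins, which left 13 higher and 21 lower, and division by length and by count. Members of at least 1287 bases gave 1 higher, 94.4% lower and a median of -1.29, and shorter ones 5 lower, 27.8% lower and a median of 1.41. Members with at least 248 counts gave 4 higher and 84.0% lower, and those with fewer 1 lower, 9.09% lower and a median of 1.84. With 1 library per condition, depth limits only the counting error, which was widest for RHTO_05457 (39 counts against 1).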
